A study of Mus musculus with 15 samples.

Results

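The Toll-like receptor genes were followed through blood monocytes and the resident macrophages of the mouse small intestine. The 10 genes *Tlr1*, *Tlr2*, *Tlr3*, *Tlr4*, *Tlr5*, *Tlr6*, *Tlr7*, *Tlr8*, *Tlr9*, and *Tlr13* were chosen by symbol, and all 10 were found among the 19456 genes counted and among the 15802 genes tested. RNA was sequenced from adult, male, wild-type C57BL/6 mice, with no genetic change or treatment in any group. The 4 populations were sorted by flow cytometry: Ly6Chi monocytes from blood (3 libraries) and 3 subsets of CD64+Ly6C-MHCII+ macrophages (4 libraries each). Tim-4-CD4- macrophages carried neither of the surface proteins used to divide them, Tim-4-CD4+ macrophages carried CD4 alone, and Tim-4+CD4+ macrophages carried both, and values for the 3 subsets are listed in this order. A library was made from the cells of several pooled mice, so that p-values measure the spread between pools rather than between animals.

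Toll-like receptors are sensors of microbial products that signal through adaptor proteins to NF-κB and interferon regulatory factors. TLR1, TLR2, TLR4, TLR5, and TLR6 act mainly at the cell surface, where TLR2 pairs with TLR1 or TLR6 to bind bacterial lipopeptides, TLR4 senses lipopolysaccharide, and TLR5 senses flagellin. TLR3, TLR7, TLR8, TLR9, and TLR13 sense nucleic acids in endosomes, which they reach with the chaperone UNC93B1 and where proteases process several of them. Macrophages of the intestine live near commensal microbes, which the paper describes as relatively few in the small intestine, the site sampled here. Such macrophages are known for a restrained response to these ligands.

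Sorting markers were read first as a check of the labels. *Timd4* lay between 336 and 390 CPM (counts of a gene per 1000000 counts of its library, with library sizes scaled by edgeR's TMM method) in Tim-4+CD4+ libraries and at no more than 4.47 CPM in any other library. *Cd4* lay between 484 and 924 CPM in the CD4+ subsets and between 14.5 and 39.2 CPM in Tim-4-CD4- macrophages. *Ly6c2* was at 820.0 CPM or more in monocytes and at no more than 3.46 CPM in macrophages, and *H2-Ab1*, an MHC class II gene, was at 10520.9 CPM or more in macrophages and at no more than 216 CPM in monocytes. The summed level of 7 macrophage markers was 12370.8 to 15943 CPM in macrophages and 3383 to 3631 CPM in monocytes. Library totals ran from 39388763 to 151510641 counts, and the lowest count of any member in any library was 282. In each subset 1 library held the lowest level for most members. It was replicate 2 of Tim-4-CD4- macrophages for 7 of the 10 (and for 29.98% of all genes), replicate 3 of the Tim-4-CD4+ subset for 8 (30.6%), and replicate 1 of Tim-4+CD4+ macrophages for 7 (37.4%). Where leaving out 1 of these ended or made the call of a member, the value without it is given.

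The sequences before the starts of *Tlr2*, *Tlr5*, and *Tlr1* are shown because *Tlr2* and *Tlr5* were the members that differed between macrophage subsets and *Tlr1* rose alongside the fall of its partner *Tlr2*. Each is the 250 bases before the RefSeq start, read 5′ to 3′ on the strand of the gene, from GRCm38.p6, whose chromosome positions are those of the GRCm38.p4 used by the authors. Capitals mark the letters GGGCGG (the Sp1 core) in *Tlr2* and *Tlr5* and GAGGAA (a PU.1/ETS core) in *Tlr1*. The *Tlr2* stretch is chr3:83841609-83841858 (minus strand), that of *Tlr5* is chr1:182954538-182954787 (plus strand), and that of *Tlr1* is chr5:64933559-64933808 (minus strand).
Tlr2: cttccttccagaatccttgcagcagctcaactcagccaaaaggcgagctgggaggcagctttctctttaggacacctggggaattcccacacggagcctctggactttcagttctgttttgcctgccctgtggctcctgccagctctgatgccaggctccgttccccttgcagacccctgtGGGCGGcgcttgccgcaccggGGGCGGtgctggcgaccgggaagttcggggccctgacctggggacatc
Tlr5: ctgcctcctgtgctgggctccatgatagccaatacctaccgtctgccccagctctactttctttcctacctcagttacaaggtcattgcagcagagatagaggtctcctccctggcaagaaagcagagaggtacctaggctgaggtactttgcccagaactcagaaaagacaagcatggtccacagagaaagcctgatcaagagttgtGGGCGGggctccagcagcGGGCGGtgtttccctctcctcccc
Tlr1: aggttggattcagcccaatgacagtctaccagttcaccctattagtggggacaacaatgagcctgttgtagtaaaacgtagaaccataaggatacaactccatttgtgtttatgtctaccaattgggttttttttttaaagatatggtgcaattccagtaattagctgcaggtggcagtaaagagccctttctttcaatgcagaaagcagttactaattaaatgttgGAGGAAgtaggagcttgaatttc

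For comparison, 4 motifs were searched on both strands in these 250 bases for the 10 RefSeq starts of 8 members (*Tlr1* and *Tlr6* have 2 starts each, and *Tlr4* and *Tlr7* were not in the table of promoters). GGGCGG was found before 2 of the 10 starts, those of *Tlr2* and *Tlr5*, each of which held it 2 times, and before 32.7% of all 32851 starts. GAGGAA was found before 4 of the 10, those of *Tlr1*, *Tlr8*, *Tlr9*, and *Tlr13*, and before 23.3% of all starts. The interferon response element core (GAAA, any 2 bases, GAAA) was found before 1 start of *Tlr6*, as 2 overlapping matches, and before 2.98% of all starts. TATAAA was found before 1 start of *Tlr6* and that of *Tlr8*, where 2 matches overlapped, and before 12.4% of all starts. These matches describe letters and were not tested as binding sites.

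In GENCODE vM21 on GRCm38, *Tlr1* (ENSMUSG00000044827.10) spans chr5:64924679-64933563 and *Tlr6* (ENSMUSG00000051498.6) lies next to it at chr5:64952031-64960097, both on the minus strand. They are close paralogs, and reads that fit both would have been left out, since only uniquely mapped reads were counted. *Tlr2* (ENSMUSG00000027995.10) is at chr3:83836272-83841767, *Tlr3* (ENSMUSG00000031639.12) at chr8:45395665-45411080, and *Tlr5* (ENSMUSG00000079164.8) at chr1:182954788-182976044. The GENCODE model of *Tlr2* reaches farther upstream than the RefSeq start, into the stretch printed above, and both marked GGGCGG of *Tlr2* lie within its span. Exons of *Tlr3* overlap those of the antisense gene *Gm45542*, and because the sources used here do not give the strand setting used for counting, reads of the pair cannot be told apart. *Tlr7* and *Tlr8* are neighbors on the X chromosome.

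Against monocytes, the macrophages had more *Tlr1* and *Tlr3*, and less *Tlr2*, *Tlr7*, and *Tlr13*, in every subset, whereas each of the other members passed the threshold in some subsets or in none. Of the 10 members, 2 were higher and 4 lower in Tim-4-CD4- macrophages, 3 were higher and 3 lower in Tim-4-CD4+ macrophages, and 2 were higher and 7 lower in Tim-4+CD4+ macrophages at an adjusted p under 0.05 by edgeR's quasi-likelihood test. Over all genes tested, 37.3% were higher and 28.1% lower in Tim-4-CD4- macrophages, 39.1% were higher and 30.7% lower in Tim-4-CD4+ macrophages, and 39.5% were higher and 31.3% lower in Tim-4+CD4+ macrophages. The median absolute log2 fold change of the members was 0.44, 0.51, and 0.68 in the order of these subsets, compared with 0.75, 0.86, and 0.89 over all genes. The 9 members called in Tim-4+CD4+ macrophages were 5 when only this subset and monocytes were fitted, and 8 without Tim-4+CD4+ replicate 1. The 3 comparisons share the monocyte libraries.

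**Figure D1:**
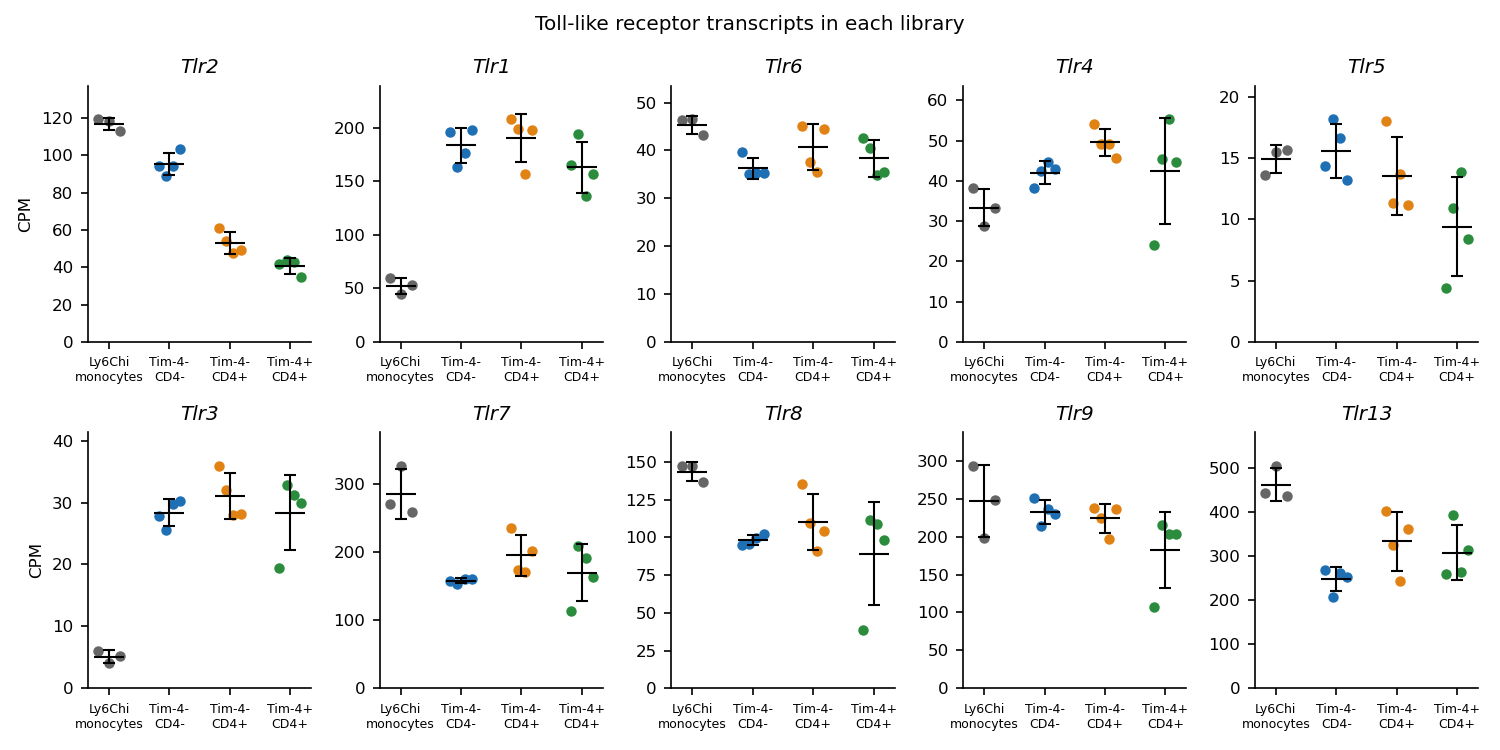
CPM (linear axis from 0) of each member in each library, with 1 point per library and black bars for the mean ± SD (3 monocyte libraries, 4 of each subset). *Tlr2* steps down from monocytes to Tim-4+CD4+ macrophages with no overlap between populations, *Tlr1* and *Tlr3* are higher in all macrophage libraries than in all monocyte libraries, and Tim-4+CD4+ replicate 1 lies low for *Tlr3*, *Tlr4*, *Tlr5*, *Tlr7*, *Tlr8*, and *Tlr9*.

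**Figure D2:**
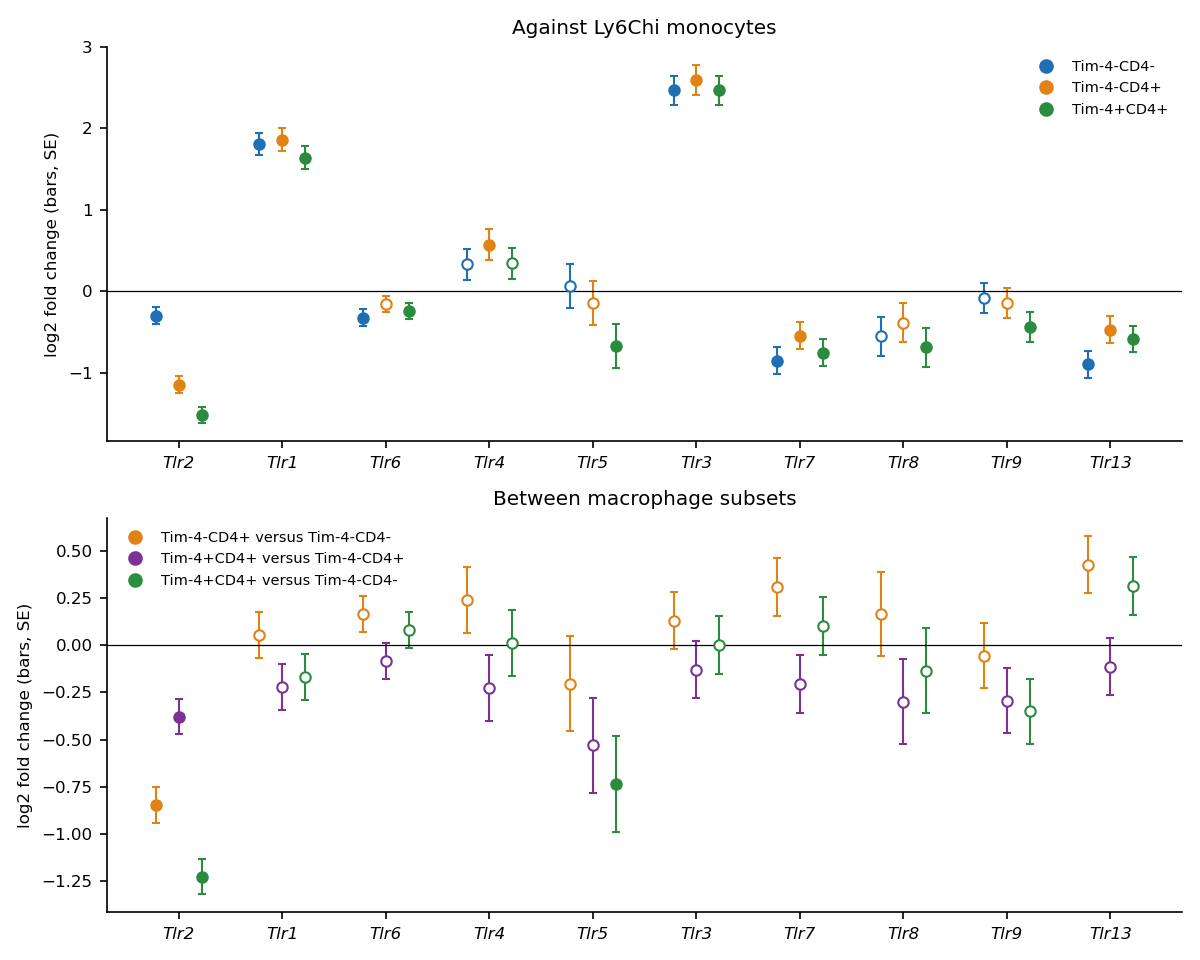
Log2 fold change of each member with its SE from the edgeR fit, against monocytes (top) and between macrophage subsets (bottom), where filled points had an adjusted p under 0.05. *Tlr1* and *Tlr3* lie between 1.64 and 2.60 above monocytes, and between subsets the filled points are those of *Tlr2* and 1 of *Tlr5*.

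*Tlr2*, which encodes the shared partner of the lipopeptide receptors, was the member that separated all 4 populations. Its level was 119, 118, and 113 CPM in the 3 monocyte libraries. It was 94.3, 89.2, 94.4, and 103 CPM in Tim-4-CD4- macrophages, 61.1, 54.0, 47.6, and 49.3 CPM in Tim-4-CD4+ macrophages, and 41.8, 43.7, 42.9, and 34.6 CPM in Tim-4+CD4+ macrophages. No library of one population overlapped with another population, and the levels were lowest where Tim-4 and CD4 were both present. In Tim-4-CD4+ relative to Tim-4-CD4- macrophages, *Tlr2* fell by 0.85 on the log2 scale (SE 0.09, adjusted p = 2e-05 by edgeR), and this call was made under all 24 alternatives. Here and below, the 24 leave out the added requirement of a 2-fold change, which this difference (1.80-fold) did not reach. In this comparison *Tlr2* was the only member called in the main fit, 1 of 10, while 5.53% of all genes were lower and 4.52% higher. In Tim-4+CD4+ relative to Tim-4-CD4- macrophages the difference was -1.22 (SE 0.09, adjusted p = 9.7e-08 by edgeR), or 2.34-fold lower, and between the CD4+ subsets it was -0.38 (SE 0.09, adjusted p = 0.033 by edgeR). The last step was called under 12 of 24 alternatives, with adjusted p-values from 0.0061 to 0.15. Among the 12 that lost it were 7 that left out 1 library, namely replicate 1 or 3 of the Tim-4-CD4- subset, replicate 1, 2, or 4 of Tim-4-CD4+ macrophages, and replicate 3 or 4 of Tim-4+CD4+ macrophages, with log2 fold changes from -0.40 to -0.29.

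Against monocytes, *Tlr2* was lower in every subset. The log2 fold change was -0.30 in Tim-4-CD4- macrophages (SE 0.10, adjusted p = 0.016 by edgeR), -1.14 in Tim-4-CD4+ macrophages (SE 0.10, adjusted p = 2.9e-08), and -1.52 in Tim-4+CD4+ macrophages (SE 0.10, adjusted p = 7.1e-10). The first of these was called under 20 of 24 alternatives, not with upper-quartile scaling (-0.23) and not without monocyte replicate 1 or 2 or Tim-4-CD4- replicate 2 (-0.26 to -0.25), and the others under all 24. Genes of Ly6Chi monocytes moved in the same order as *Tlr2*. The summed level of 4 monocyte markers was 5188 to 7955 CPM in monocytes, 554 to 828 CPM in Tim-4-CD4- macrophages, 74.9 to 132 CPM in Tim-4-CD4+ macrophages, and 13.4 to 24.8 CPM in Tim-4+CD4+ macrophages. None of the 4 was at 0 in any population, and *Ccr2*, the chemokine receptor of these monocytes, accounted for 510.2 to 759 CPM in Tim-4-CD4- macrophages. The part of such cells in the level of *Tlr2* was not tested, and in sorted bulk samples, fewer cells of a type and less RNA per cell cannot be told apart.

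*Tlr1* rose from monocytes to macrophages. Its level was 59.4, 44.4, and 53.3 CPM in monocytes, and 196, 164, 176, and 198 CPM in Tim-4-CD4- macrophages. It was 208, 199, 157, and 198 CPM in Tim-4-CD4+ macrophages, and 165, 194, 136, and 157 CPM in Tim-4+CD4+ macrophages. Every macrophage library was above every monocyte library, whereas the subsets overlapped with each other. The log2 fold change against monocytes was 1.81 (SE 0.14, adjusted p = 6.8e-09), 1.86 (SE 0.14, adjusted p = 4.1e-09), and 1.64 (SE 0.14, adjusted p = 1.7e-08 by edgeR) in the order of the subsets. Between subsets the log2 differences of *Tlr1* were at most 0.22 in size, with adjusted p-values of 0.36 or more, and the approximate 95% interval of the widest, between the CD4+ subsets, ran from -0.46 to 0.02.

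*Tlr6*, whose product pairs with TLR2 in place of TLR1, varied little. It lay between 43.2 and 46.5 CPM in monocytes, 35.0 and 39.6 CPM in Tim-4-CD4- macrophages, 35.6 and 45.0 CPM in Tim-4-CD4+ macrophages, and 34.8 and 42.6 CPM in Tim-4+CD4+ macrophages. *Tlr6* was lower than in monocytes in Tim-4-CD4- macrophages (log2 fold change -0.32, SE 0.10, adjusted p = 0.010 by edgeR), a call lost with upper-quartile scaling (-0.26) and without monocyte replicate 1 or 2 (-0.28 each). The difference of -0.24 in Tim-4+CD4+ macrophages (adjusted p = 0.042 by edgeR) was called under 2 of 24 alternatives, and leaving out any 1 library but Tim-4+CD4+ replicate 1 ended the call (-0.24 to -0.17). No difference of *Tlr6* between subsets passed the threshold.

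Set against each other per kilobase of exon, the balance of the 3 genes shifted. Per length, the *Tlr1* level was 0.403 ± 0.058 times that of *Tlr2* in monocytes (SD, n = 3), and 1.73 ± 0.10, 3.25 ± 0.29, and 3.63 ± 0.56 times that of *Tlr2* in the 3 subsets (SD, n = 4 each). In the monocyte libraries, *Tlr2* was the more abundant of the pair, and in every macrophage library *Tlr1* was. The ratio of *Tlr6* to *Tlr2* was 0.308 to 0.317 in monocytes and 0.276 to 0.340 in Tim-4-CD4- macrophages, and it was 0.563 to 0.729 and 0.655 to 0.830 in the CD4+ subsets. The ratio of *Tlr1* to *Tlr6* was 1.06 to 1.43 in monocytes and 4.32 to 6.26 in macrophages. These ratios restate the levels above and were given no test of their own.

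**Figure D3:**
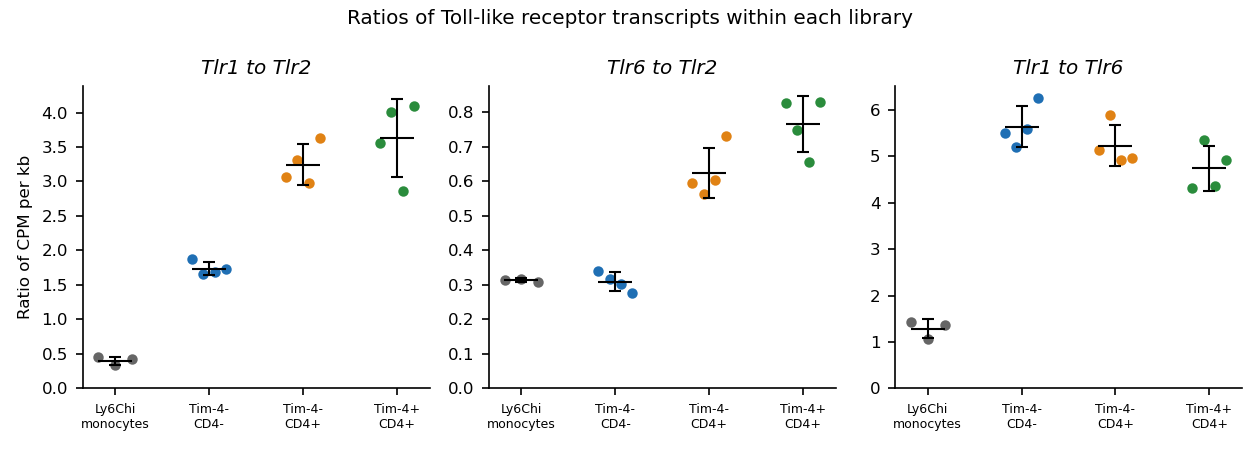
Ratio of levels per kilobase of exon between *Tlr1* and *Tlr2*, *Tlr6* and *Tlr2*, and *Tlr1* and *Tlr6* (linear axes from 0), with 1 point per library and the mean ± SD in black. *Tlr1* to *Tlr2* is at 0.337 to 0.448 in monocytes and at 1.65 or more in every macrophage library, and both ratios with *Tlr2* are higher in the CD4+ subsets than in Tim-4-CD4- macrophages.

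*Tlr4*, which encodes the receptor for lipopolysaccharide, was higher in Tim-4-CD4+ macrophages than in monocytes. Its level was 28.8 to 38.1 CPM in monocytes and 45.8 to 54.1 CPM in Tim-4-CD4+ macrophages, without overlap, and the log2 fold change was 0.57 (SE 0.19, adjusted p = 0.014 by edgeR), a call made under all 24 alternatives. In Tim-4-CD4- macrophages it was 38.2 to 44.8 CPM, with a log2 fold change of 0.33 against monocytes (SE 0.19, adjusted p = 0.13 by edgeR), which passed as 0.35 without Tim-4+CD4+ replicate 1. In Tim-4+CD4+ macrophages, 3 libraries lay between 44.8 and 55.3 CPM and replicate 1 was at 24.1 CPM, below all monocyte libraries. The log2 fold change there was 0.34 (adjusted p = 0.11 by edgeR) with replicate 1 and 0.56 without it, past the threshold. Of the genes that serve TLR4, *Cd14*, which encodes its coreceptor, averaged 35.6 ± 4.44 CPM in monocytes (SD, n = 3), 1169 ± 95.9, 856 ± 83.1, and 640.4 ± 99.4 CPM (SD, n = 4 each) in the 3 subsets. *Ly96*, which encodes the subunit MD-2 that binds lipopolysaccharide, was at 12.3 to 14.2 CPM on average in the 4 populations, and none of its 6 differences passed the threshold. *Lbp*, the lipopolysaccharide-binding protein, averaged 22.3 ± 11.9 CPM in monocytes (SD, n = 3) but no more than 1.24 CPM in any macrophage subset.

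*Tlr5*, the flagellin receptor gene, was among the lowest members. It was at 13.7, 15.5, and 15.7 CPM in monocytes and at 14.4, 18.2, 16.7, and 13.2 CPM in Tim-4-CD4- macrophages. It was at 18.03, 11.3, 13.7, and 11.2 CPM in Tim-4-CD4+ macrophages and at 4.37, 10.97, 13.9, and 8.38 CPM in Tim-4+CD4+ macrophages. All populations overlapped, and the lowest library was again Tim-4+CD4+ replicate 1. Relative to Tim-4-CD4- macrophages, *Tlr5* was lower in the Tim-4+CD4+ subset (log2 fold change -0.74, SE 0.25, adjusted p = 0.045 by edgeR), but this was called under 10 of 24 alternatives. It was -0.49 without Tim-4+CD4+ replicate 1 and did not pass, nor did it (-0.80 to -0.65) without any 1 monocyte or Tim-4-CD4- library, without Tim-4-CD4+ replicate 2, 3, or 4, or without Tim-4+CD4+ replicate 4. In this comparison 2 of the 10 members were called, both lower, while 11.9% of all genes were lower and 11.3% higher. Against monocytes the log2 fold change in Tim-4+CD4+ macrophages was -0.67 (SE 0.27, adjusted p = 0.034 by edgeR), called under 16 of 24 alternatives. It was not past the threshold without replicate 1 (-0.41), without replicate 4 (-0.62), or without any 1 monocyte library (-0.71 to -0.61). Nor did it pass with upper-quartile scaling (-0.58), with only the 2 populations fitted (-0.64), or with the replicate block by title numbers (-0.64). In Tim-4+CD4+ replicate 1 the summed markers of 7 of 11 other cell types were the highest of its subset, as were those of macrophages. This was not particular to that library, since Tim-4-CD4- replicate 3 was the highest of its own subset for 6 of the 11. B cell markers summed to 72.4 CPM in Tim-4+CD4+ replicate 1, compared with 35.6 to 48.5 CPM in the other libraries of the subset. B220 was nonetheless among the antigens of the antibody mix the study used to exclude lymphocytes. The part of other cells in the low *Tlr5* was not tested.

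*Tlr3*, which encodes the endosomal receptor for double-stranded RNA, changed the most of all members. It was at 6.09, 4.02, and 5.24 CPM in monocytes and at 27.8, 25.5, 29.8, and 30.2 CPM in Tim-4-CD4- macrophages. It was at 35.9, 32.0, 28.003, and 28.2 CPM in Tim-4-CD4+ macrophages and at 19.5, 32.8, 31.2, and 29.99 CPM in Tim-4+CD4+ macrophages. Every macrophage library was above every monocyte library, and the subsets overlapped. The log2 fold change against monocytes was 2.47 (SE 0.18, adjusted p = 3.7e-09), 2.60 (SE 0.18, adjusted p = 1.7e-09), and 2.47 (SE 0.18, adjusted p = 2.9e-09 by edgeR), or 5.53-, 6.05-, and 5.53-fold. Between subsets the log2 difference of *Tlr3* was at most 0.13 in size, with adjusted p-values of 0.69 or more, and its approximate 95% interval between the CD4+ subsets ran from -0.43 to 0.17. The lowest macrophage library, at 19.5 CPM, was Tim-4+CD4+ replicate 1, and without it the difference between the CD4+ subsets was 0.02. Its adaptor TRIF is encoded by *Ticam1*, which averaged 39.1 ± 2.87 CPM in monocytes (SD, n = 3), and 34.6 ± 2.53, 26.3 ± 4.23, and 26.6 ± 2.20 CPM (SD, n = 4 each) in the 3 subsets.

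*Tlr7* and *Tlr8*, the neighboring genes for sensors of single-stranded RNA, were highest in monocytes. *Tlr7* was at 259 to 326 CPM in monocytes, 153 to 161 CPM in Tim-4-CD4- macrophages, 170.2 to 235 CPM in Tim-4-CD4+ macrophages, and 113 to 209 CPM in Tim-4+CD4+ macrophages, and no macrophage library reached the monocyte range. Its log2 fold changes were -0.85 (SE 0.16, adjusted p = 0.00024), -0.55 (SE 0.16, adjusted p = 0.0073), and -0.75 (SE 0.16, adjusted p = 0.00064 by edgeR), of which the second was lost under 1 of 24 alternatives, without monocyte replicate 2 (-0.41). *Tlr8* was at 136 to 147 CPM in monocytes and at 94.8 to 102 CPM in Tim-4-CD4- macrophages, 90.7 to 135 CPM in Tim-4-CD4+ macrophages, and 38.9 to 111 CPM in Tim-4+CD4+ macrophages, and no macrophage library reached the monocyte range either. The log2 fold change of *Tlr8* was -0.69 in Tim-4+CD4+ macrophages (SE 0.24, adjusted p = 0.017 by edgeR) and -0.42 without replicate 1, still past the threshold. In the other subsets it was -0.55 (adjusted p = 0.054) and -0.39 (adjusted p = 0.16), and these were called, at -0.54 and -0.37, when Tim-4+CD4+ replicate 1, which entered the shared estimate of the spread, was left out, and at -0.51 and -0.38 with only the 2 populations fitted. In Tim-4-CD4- macrophages the call on *Tlr8* was also made with DESeq2 (-0.52) and with 1 of the replicate blocks (-0.59).

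*Tlr9*, the receptor gene for unmethylated CpG DNA, passed the threshold against monocytes in neither Tim-4- subset. It was at 198 to 293 CPM in monocytes, 213 to 251 CPM in Tim-4-CD4- macrophages, and 197 to 238 CPM in Tim-4-CD4+ macrophages, with log2 fold changes of -0.08 (approximate 95% interval -0.45 to 0.28) and -0.14 (-0.50 to 0.22). In Tim-4+CD4+ macrophages 3 libraries were at 204 to 216 CPM and replicate 1 at 108 CPM. The log2 fold change of -0.43 (SE 0.18, adjusted p = 0.046 by edgeR) was called under 5 of 24 alternatives, without replicate 1 it was -0.23 and did not pass, and leaving out any 1 library but monocyte replicate 2 or Tim-4+CD4+ replicate 2, 3, or 4 ended the call too (-0.41 to -0.26 for the others). *Tlr13*, the gene for the sensor of bacterial ribosomal RNA, was lower in the macrophages, with log2 fold changes of -0.90 (SE 0.16, adjusted p = 0.00014), -0.47 (SE 0.16, adjusted p = 0.017), and -0.58 (SE 0.16, adjusted p = 0.0043 by edgeR) in the 3 subsets. It was at 436 to 504 CPM in monocytes, 207 to 268 CPM in Tim-4-CD4- macrophages, 243 to 402 CPM in Tim-4-CD4+ macrophages, and 259.6 to 392 CPM in Tim-4+CD4+ macrophages, so that no macrophage library overlapped with monocytes. The call in Tim-4-CD4+ macrophages was lost without monocyte replicate 2 (-0.37) or without Tim-4-CD4+ replicate 3 (-0.33). Relative to Tim-4-CD4- macrophages, the log2 difference of *Tlr13* in the Tim-4-CD4+ subset was 0.43 (SE 0.15, adjusted p = 0.093 by edgeR), past the threshold with DESeq2 (adjusted p = 0.035) and, at 0.55, without Tim-4-CD4+ replicate 3.

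Markers of other cells, some of them known for these endosomal receptors, were present in macrophage libraries at levels that differed by list. The summed level of 5 plasmacytoid dendritic cell markers was 0.149 to 0.623 CPM in monocytes and 5.71 to 16.2 CPM in macrophages, and that of 5 B cell markers was 8.26 to 10.5 CPM in monocytes and 35.6 to 72.4 CPM in macrophages. Among the first, *Klk1* was at 0 in all monocyte libraries, and no B cell marker was at 0 in a whole population. The 4 plasma cell markers summed to 1.69 to 3.04 CPM in monocytes and to 198 to 391 CPM in macrophages, and 5 conventional dendritic cell markers summed to 75.1 to 100.03 CPM in monocytes and to 83.5 to 164 CPM in macrophages. Single genes, *Cd79b*, *Jchain*, and *Dpp4*, made up most of the B cell, plasma cell, and dendritic cell sums in macrophages. The dendritic cell markers did not move together. *Dpp4* averaged 54.1 CPM in monocytes and 103, 104, and 93.0 CPM in the 3 subsets, and *Zbtb46*, *Xcr1*, and *Itgae* were also higher in each subset. *Flt3* averaged 29.6 CPM in monocytes but 8.65, 0.829, and 0.572 CPM in the subsets. In endothelium *Tlr3* is also known, and its markers did not move together. *Pecam1*, which myeloid cells carry too, averaged 15.01 CPM in monocytes and 104, 185, and 305 CPM in the 3 subsets. *Cdh5* averaged 0.838 CPM in monocytes and 4.58, 3.33, and 5.24 CPM in the subsets, and *Kdr* averaged 0.314 CPM in monocytes and 4.89, 2.37, and 4.19 CPM in the subsets, both lowest among subsets in Tim-4-CD4+ macrophages. Their part in the levels of *Tlr3*, *Tlr7*, *Tlr8*, *Tlr9*, and *Tlr13* was not tested.

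Per kilobase of exon, the members could be ranked within each population. In monocytes *Tlr13* led at 107 CPM per kb, followed by *Tlr9* (70.9) and *Tlr7* (69.8), whose libraries overlapped, then *Tlr8* (40.0) and *Tlr2* (38.8), which also overlapped. *Tlr1* (15.7), *Tlr6* (12.2), *Tlr4* (6.01), *Tlr5* (3.12), and *Tlr3* (0.983 CPM per kb) followed, each apart from the next. In Tim-4-CD4- macrophages *Tlr9* (66.9), *Tlr13* (57.6), and *Tlr1* (54.9 CPM per kb) were at the top, with overlap between neighbors, and *Tlr5* (3.26) was the lowest. In Tim-4-CD4+ macrophages the order at the top was *Tlr13* (77.3), *Tlr9* (64.4), *Tlr1* (57.0), and *Tlr7* (47.8 CPM per kb), again overlapping, and in Tim-4+CD4+ macrophages it was *Tlr13* (71.5), *Tlr9* (52.5), *Tlr1* (48.8), and *Tlr7* (41.5 CPM per kb). *Tlr2* was above *Tlr8* in Tim-4-CD4- macrophages (31.6 and 27.3 CPM per kb) and below it in both CD4+ subsets (17.6 and 30.6 CPM per kb, and 13.5 and 24.9 CPM per kb, the last pair with overlap). *Tlr6*, *Tlr4*, *Tlr3*, and *Tlr5* were the lowest in every subset, in this order by their means. With the length of the longest transcript in place of the summed exons, *Tlr7* came before *Tlr9* in monocytes, *Tlr4* before *Tlr6* in both Tim-4- subsets, and *Tlr1* before *Tlr9* in Tim-4+CD4+ macrophages.

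The summed level of the 10 members was 365 ± 13.4 CPM per kb in monocytes (SD, n = 3), and 303 ± 16.9, 323 ± 42.6, and 278 ± 49.97 CPM per kb in the 3 subsets (SD, n = 4 each). The 5 endosomal receptors made up 78.7 to 80.1% of this sum in monocytes, 63.6 to 65.8% in Tim-4-CD4- macrophages, 68.8 to 71.0% in Tim-4-CD4+ macrophages, and 62.6 to 72.5% in Tim-4+CD4+ macrophages. In Tim-4+CD4+ replicate 1 the sum was 213.6 CPM per kb and the endosomal share 62.6%, compared with 280.3 to 336 CPM per kb and 72.0 to 72.5% in the other libraries of the subset. *Tlr1* contributed 3.59 to 4.73% in monocytes and 14.5 to 23.1% in macrophages, where the highest share was again that of Tim-4+CD4+ replicate 1 and the next was 18.98%. Among the 10 members, no macrophage library reached the monocyte share of endosomal receptors, and none fell to the monocyte share of *Tlr1*. The sums and shares leave out *Tlr11* and *Tlr12*, further Toll-like receptor genes treated below. Per length, *Tlr12* averaged 0.0016 times the level of *Tlr13* in monocytes, and 2.08, 2.50, and 2.81 times in the 3 subsets. The sums and shares therefore do not give the level, or the endosomal part, of all Toll-like receptors.

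**Figure D4:**
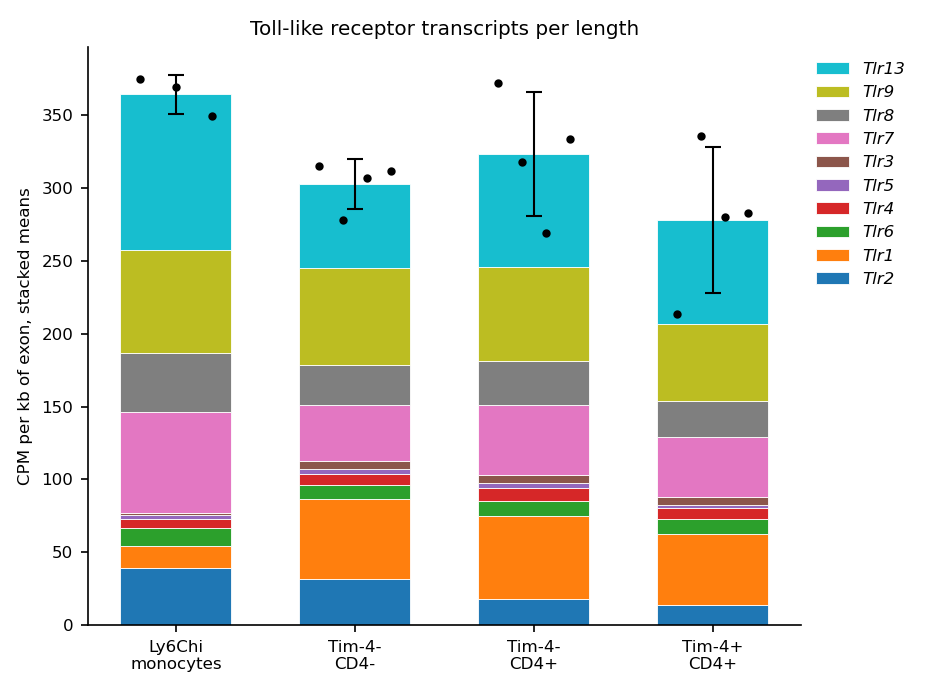
Stacked mean levels of the 10 members per kilobase of exon in each population (linear axis from 0), with the sum of each library as points and its SD as a bar (3 monocyte libraries, 4 of each subset). The *Tlr1* segment grows from 15.7 CPM per kb in monocytes to 48.8 or more in macrophages, and the *Tlr2* segment narrows from 38.8 to 13.5 CPM per kb.

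Between the CD4+ subsets, *Tlr2* was 1 of 10 members called, while 1.34% of all genes were lower and 2.07% higher in Tim-4+CD4+ macrophages. All 10 members had a log2 difference below 0 in this comparison in the main fit, with a median of -0.22 compared with 0.00 over all genes. Without Tim-4+CD4+ replicate 1, *Tlr3* turned to 0.02, and those of *Tlr4*, *Tlr7*, *Tlr8*, and *Tlr9*, none of them past the threshold, were between -0.11 and -0.03.

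The genes whose levels followed those of a member most closely were found by the root mean square (RMS) difference of log2 CPM over the 15 libraries, after centering each gene, among 11798 genes with a mean of at least 1 CPM. For *Tlr1* these were *Tnfsf13b* (RMS difference 0.13), which encodes the B cell survival factor BAFF, *Siglece* (0.14), and *Ccnl1* (0.15). For *Tlr2* they were *Glipr1* (0.13), *Vrk1* (0.19), and *Sinhcaf* (0.21). For *Tlr3* they were *Ncapg2* (0.18), *Sfmbt1* (0.18), and *P2ry12* (0.19), a purinergic receptor gene of resident macrophages. *Glipr1* stepped down as *Tlr2* did, from 129 CPM on average in monocytes to 91.5, 53.9, and 38.2 CPM in the 3 subsets. With 4 populations, likeness over the 15 libraries mostly restates the population means, and no p is given.

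Mice carry further Toll-like receptor genes, of which *Tlr11* and *Tlr12*, whose products sense profilin of protozoa, were in the table. *Tlr12* was at 0.779, 0.516, and 0.372 CPM in monocytes and at 341 to 405, 567 to 620.4, and 584 to 659 CPM in the 3 macrophage subsets. The monocyte and macrophage ranges were far apart, and the Tim-4-CD4- range lay below those of both CD4+ subsets. Its log2 fold change against monocytes was 9.31, 9.98, and 10.04 (SE 0.20 each, adjusted p = 9.1e-16 or less by edgeR), and relative to Tim-4-CD4- macrophages it was higher by 0.67 (SE 0.12, adjusted p = 0.0013) with CD4 alone and by 0.73 (SE 0.12, adjusted p = 0.00022) with both surface proteins. Per length, *Tlr12* was at 118, 187, and 196 CPM per kb in the 3 subsets, above each of the 10 members. *Tlr11* was at 4.64 to 11.3 CPM in monocytes and at 9.75 to 15.9 CPM in macrophages, with log2 fold changes of 0.92, 0.81, and 0.61 against monocytes, all past the threshold (adjusted p = 0.0019, 0.0040, and 0.021 by edgeR). In Tim-4+CD4+ macrophages the call on *Tlr11* was lost without monocyte replicate 2 (0.38) or 3 (0.60), without Tim-4+CD4+ replicate 4 (0.55), and with only the 2 populations fitted (0.64). Without monocyte replicate 1, the highest of that group, the values were 1.34, 1.23, and 1.04.

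The proteins that serve the receptors were read in 7 lists of 68 genes, all of them tested, with *Tlr11* and *Tlr12* as 1 of the lists. Of the 68, 34 were higher and 19 lower in Tim-4-CD4- macrophages than in monocytes, 31 were higher and 21 lower in Tim-4-CD4+ macrophages, and 32 were higher and 22 lower in Tim-4+CD4+ macrophages. As percentages of the 68 these were 50 and 27.9, 45.6 and 30.9, and 47.1 and 32.4, beside 37.3 and 28.1, 39.1 and 30.7, and 39.5 and 31.3 over all genes, the shares against which each list below is to be read. Relative to Tim-4-CD4- macrophages, 5 were higher and 10 lower in the Tim-4-CD4+ subset, and 13 were higher and 18 lower in the Tim-4+CD4+ subset. These were 7.35% higher and 14.7% lower, and 19.1% higher and 26.5% lower, beside 4.52% and 5.53%, and 11.3% and 11.9%, over all genes. Between the CD4+ subsets, none of the 68 passed with edgeR, 11 had an unadjusted p under 0.05, and DESeq2 called 2, *Cd14* and *Irf3*. At least 1 alternative ended the call for 7 of 53, 2 of 52, and 6 of 54 genes against monocytes. It did so for 7 of the 15 called in the Tim-4-CD4+ subset relative to Tim-4-CD4- macrophages (*Cd14*, *Ticam1*, *Nfkb1*, *Rela*, *Irf8*, *Lgmn*, and *Pld3*), and for 9 of the 31 called with both surface proteins (*Cd180*, *Ticam1*, *Traf3*, *Tbk1*, *Nfkb2*, *Irf3*, *Tnip1*, *Tnip2*, and *Dnase2a*).

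Among 10 genes for endosomal processing of receptors and nucleic acids, 8, 7, and 9 were higher than in monocytes in the order of the subsets. None was lower, and the median log2 fold changes were 1.06, 1.34, and 1.46, compared with 0.08, 0.11, and 0.10 over all genes. *Lgmn*, the asparagine endopeptidase, had log2 fold changes of 3.68, 3.97, and 4.04 (SE 0.11 each). *Ctsl*, which encodes cathepsin L, had values of 2.92, 3.55, and 3.59, and *Slc15a3*, a lysosomal peptide transporter, had values of 2.22, 2.53, and 2.70. Relative to Tim-4-CD4- macrophages, 3 of the 10 rose in the Tim-4-CD4+ subset, *Ctsl* by 0.63, *Pld3* by 0.44, and *Lgmn* by 0.29, and none fell. In the Tim-4+CD4+ subset 6 rose and none fell, led by *Pld3*, a nuclease of nucleic acid ligands (0.77, SE 0.11, adjusted p = 0.00011 by edgeR), *Ctsl* (0.66), and *Ctsb* (0.50). The median log2 difference of the list in the latter comparison was 0.33, compared with 0.00 over all genes.

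Among 10 chaperones and coreceptors, 7, 5, and 5 were higher and 2 lower in each subset than in monocytes, with medians of 0.42, 0.31, and 0.40. *Cd14* rose by 5.04, 4.59, and 4.17 on the log2 scale (SE 0.16, 0.15, and 0.15), and *Cd36*, a scavenger receptor that serves TLR2, by 2.66, 1.88, and 1.99. *Lbp* had values of -4.15, -4.65, and -5.49. *Unc93b1*, the chaperone of the endosomal receptors, averaged 1203 ± 188 CPM in monocytes (SD, n = 3), 2328 ± 73.9, 2382 ± 198, and 2575 ± 155 CPM in the subsets (SD, n = 4 each), with log2 fold changes of 0.95, 0.99, and 1.10 (SE 0.10 each, adjusted p = 5.1e-07, 3e-07, and 7.6e-08 by edgeR). It did not differ past the threshold between subsets. In the Tim-4+CD4+ subset, 5 of the 10 were lower than in Tim-4-CD4- macrophages and none was higher: *Lbp* (-1.34), *Cd14* (-0.87, SE 0.12, adjusted p = 3.7e-05 by edgeR), *Cd36* (-0.67), *Ly86* (-0.44), and *Cd180* (-0.39, adjusted p = 0.048 by edgeR and up to 0.15 under alternatives). In the subset with CD4 alone 2 were lower than in Tim-4-CD4- macrophages, *Cd36* (-0.78) and *Cd14* (-0.45, adjusted p = 0.019 by edgeR and up to 0.075 under alternatives).

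Of 8 adaptors, 3 were higher in each subset and 4, 5, and 5 lower in the subsets than in monocytes, with medians of -0.41, -0.54, and -0.59. *Myd88*, the adaptor of all members but *Tlr3*, averaged 328 ± 75.3 CPM in monocytes (SD, n = 3), 181 ± 1.86, 154 ± 4.53, and 155 ± 11.3 CPM in the subsets (SD, n = 4 each), and its log2 fold changes were -0.85, -1.09, and -1.08 (SE 0.11 each, adjusted p = 5.2e-06 or less by edgeR). *Scimp*, an adaptor on the membrane, rose by 4.46, 4.53, and 4.40. *Sarm1*, whose product restrains TRIF, rose by 2.54, 3.54, and 4.31 but reached only 1.20 CPM on average in Tim-4+CD4+ macrophages. *Ticam2*, which links TLR4 to TRIF, averaged 47.7 ± 3.48 CPM in monocytes (SD, n = 3), 13.6 ± 1.45, 8.69 ± 1.04, and 7.69 ± 1.47 CPM in the subsets (SD, n = 4 each). Relative to Tim-4-CD4- macrophages, *Ticam2* and *Ticam1* were lower in the subset with CD4 alone (-0.64 and -0.39) and in that with both proteins (-0.82 and -0.38), where *Sarm1* was higher (1.77).

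Of 14 kinases and ubiquitin ligases, 3, 4, and 3 were higher and 8, 7, and 8 lower than in monocytes, with medians of -0.36, -0.38, and -0.52. *Ikbkb*, the gene for the kinase IKKβ that frees NF-κB, had log2 fold changes of -1.62, -1.64, and -1.69 (SE 0.08 each), whereas *Irak2* rose by 1.44, 1.57, and 1.64. Of 9 transcription factor genes, 4, 2, and 2 were higher and 3, 4, and 4 lower, with medians of 0.04, -0.13, and -0.09. *Irf7*, the interferon regulatory factor downstream of TLR7 and TLR9, had values of -1.78, -2.02, and -1.85, and *Rel* had values of 1.46, 1.22, and 0.91. In Tim-4+CD4+ relative to Tim-4-CD4- macrophages, the NF-κB genes *Rel* (-0.55), *Nfkb2* (-0.40), *Nfkb1* (-0.37), and *Rela* (-0.34) fell, and *Irf8* (0.53) and *Irf3* (0.38) rose. *Relb* had a value of -0.34 and did not pass (adjusted p = 0.059 by edgeR), and *Nfkb2* and *Irf3* lost the call under some alternatives (adjusted p up to 0.12 and 0.051).

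Of 15 genes for inhibitors, 7, 8, and 8 were higher and 2, 3, and 3 lower than in monocytes, with medians of 0.73, 0.74, and 0.72. *Tnfaip3*, which encodes A20, averaged 37.5 ± 1.55 CPM in monocytes (SD, n = 3) and at least 1118 CPM in each subset, with log2 fold changes of 5.22, 5.12, and 4.90 (SE 0.20, 0.19, and 0.19). *Dusp1*, a phosphatase of MAP kinases, rose by 5.41, 5.20, and 5.05, and *Il1rl1*, the receptor for IL-33, by 5.89, 5.29, and 4.53. The macrophages were taken from digested tissue and the monocytes from blood, so that in every comparison with monocytes the preparation and the population cannot be told apart. In Tim-4+CD4+ relative to Tim-4-CD4- macrophages, 6 of the 15 were lower and 2 higher. *Tnip3*, an A20-binding inhibitor, had a log2 fold change of -5.63 (SE 0.55, adjusted p = 1.3e-06 by edgeR), from 7.72 ± 1.46 CPM to 0.156 ± 0.126 CPM (SD, n = 4 each), and was at 3.71 ± 0.60 CPM (SD, n = 3) in monocytes. The values were -1.36 for *Il1rl1*, -0.99 for *Sigirr*, an inhibitory receptor of the family, and -0.77 for *Nfkbia*, the inhibitor IκBα, while *Tnip2* (0.35) and *Tnip1* (0.32) rose.

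**Figure D5:**
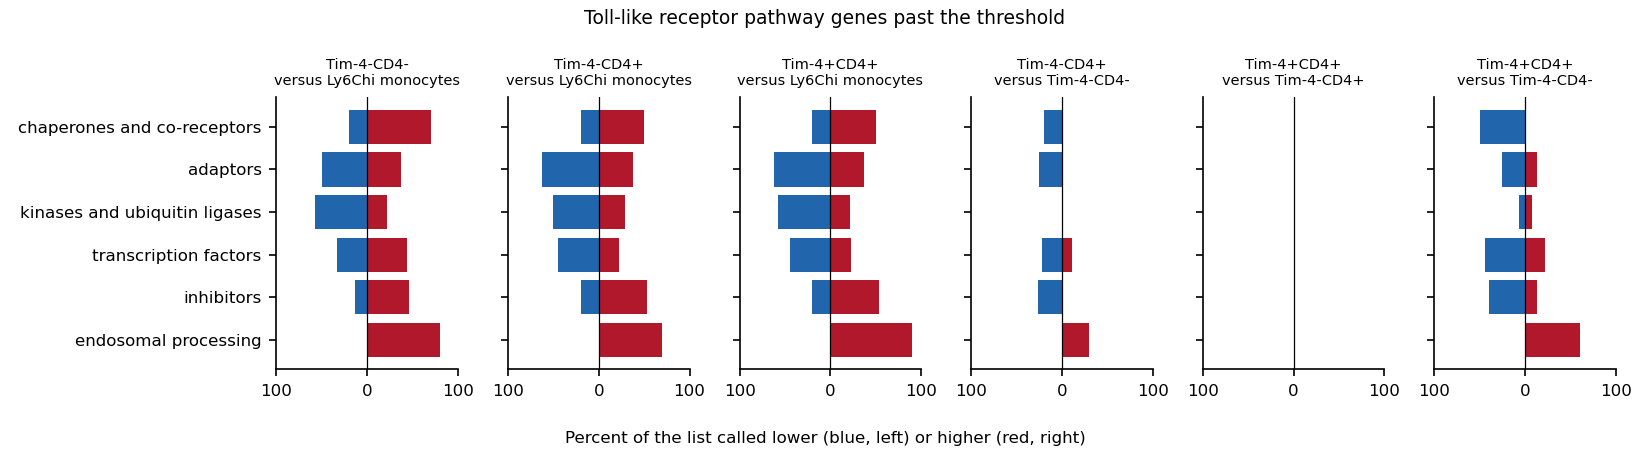
Percent of the genes of 6 lists (10 chaperones and coreceptors, 8 adaptors, 14 kinases and ubiquitin ligases, 9 transcription factors, 15 inhibitors, 10 genes of endosomal processing) called lower (blue, left) or higher (red, right) in the first population of each comparison, at an adjusted p under 0.05. The endosomal list holds red bars only, and no gene of any list was called between the CD4+ subsets.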

How the data were processed

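The authors pooled cells of 3 mice per library (4 for monocyte replicate 2), made strand-specific mRNA libraries, trimmed paired-end reads (Trimmomatic 0.36), mapped them with STAR on the GRCm38.p4 genome, and counted uniquely mapped reads with HTSeq 0.6.1p1 against GENCODE vM11. The strand setting and the filter that left genes with at least 16 reads in total are not given in the sources used here. The authors deposited raw counts per gene, without normalization, and a normalized signal, which is the count divided by 1 factor per library and was only checked. Symbols were found for 19421 of 19456 identifiers, and no columns of other samples were present.

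From the counts, edgeR 4.0.16 (R 4.3.3) was run with TMM scaling and filterByExpr, which left 15802 genes, as 1 quasi-likelihood fit of 4 populations over 15 libraries, without a replicate block. P-values were adjusted by the Benjamini-Hochberg method over all genes tested, with a threshold of 0.05. CPM per kb used the summed exon length in GENCODE vM21. SD is between libraries. Intervals are the estimate with about 2 SE on each side. The test was first run on simulated counts. Alternatives were DESeq2 1.42.0, relative log expression (RLE) or upper-quartile scaling, other filters, only 2 populations, replicate blocks, thinned counts, a 2-fold change, and each library left out. The 2-fold change is not among the 24 alternatives counted for single genes. All members were reported. Every library is given for members that differed between subsets or by at least 2-fold from monocytes, and up to 3 called genes with the largest change per list and comparison were named, besides Unc93b1, Myd88, Ticam1, Cd14, and Ly96. Ticam2, and the list members named beyond 3, were chosen after their values were seen. The members and lists were chosen with earlier results of these data known. Figures were drawn with matplotlib 3.10.9.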

Additional observations from a re-analysis of the deposited data

Results flagged for a closer look

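Within 30 groups of 4 macrophage libraries (10 members in 3 subsets), 2 held a library far from the others, where chance gives about 1 in 20. *Tlr6* in Tim-4-CD4- macrophages was at 39.6 CPM in replicate 1, and the gap to the next library was 0.95 of the range. *Tlr9* in Tim-4+CD4+ macrophages was at 108 CPM in replicate 1, with a gap of 0.89 of the range. The change from monocytes differed between subsets for 2 members, by the test of the difference itself in edgeR. Monocytes cancel in this difference, so it is the comparison of subsets given above and not a further result. The change of *Tlr2* differed by -0.85 in Tim-4-CD4+ relative to Tim-4-CD4- macrophages and by -1.22 in Tim-4+CD4+ relative to Tim-4-CD4- macrophages. Between the CD4+ subsets it differed by -0.38, a call made under 12 of 24 alternatives. The change of *Tlr5* differed by -0.74 in Tim-4+CD4+ relative to Tim-4-CD4- macrophages, and this call was made under 10 of 24 alternatives and lost without Tim-4+CD4+ replicate 1.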

How the results depend on the processing

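Of 1440 log2 fold changes of members under the alternatives, 86 no longer passed, 14 newly passed, and none that was called turned its sign. The others kept their side of the threshold, but some moved by more than their SE. *Tlr8* in Tim-4+CD4+ macrophages against monocytes, for example, went from -0.69 to as little as -0.42 (SE 0.24). Some differences that were not called changed sign, such as that of *Tlr9* in Tim-4-CD4- macrophages against monocytes (from -0.08 to as much as 0.08). Upper-quartile scaling put the median log2 fold change of all genes between Tim-4+CD4+ macrophages and monocytes at 0.21 instead of 0.10. With the longest transcript as length, 27 of 40 levels per length moved by less than 1 SD and 13 by more. Where calls also had to reach 2-fold, the members called were 2, 3, and 3 against monocytes in the order of the subsets. They were 0, 0, and 1 in Tim-4-CD4+ relative to Tim-4-CD4-, Tim-4+CD4+ relative to Tim-4-CD4+, and Tim-4+CD4+ relative to Tim-4-CD4- macrophages, an order kept for the subsets here. The same requirement left 6034, 6681, and 6849 of all genes against monocytes and 483, 277, and 1336 between subsets. With only the 2 populations in the fit, the members called were 5 between Tim-4+CD4+ macrophages and monocytes and 3 (*Tlr2*, *Tlr4*, and *Tlr7*), 0, and 1 between subsets. DESeq2 called 2 members in Tim-4-CD4+ relative to Tim-4-CD4- macrophages, and 2 pathway genes and 917 of all genes between the CD4+ subsets. Upper-quartile scaling and thinned counts left 0 members called between the CD4+ subsets, and RLE scaling left 1 in Tim-4+CD4+ relative to Tim-4-CD4- macrophages.

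With each library left out in turn, the members called ran from 4 to 8, 4 to 7, and 6 to 8 against monocytes, and from 1 to 2, 0 to 1, and 1 to 2 between subsets, in the same order. Over all genes these counts ran from 9497 to 10870, 10220 to 11510, and 10532 to 11343 against monocytes, and from 1033 to 2203, 399 to 575, and 2887 to 3799 between subsets. The lowest of the first, 1033, was without Tim-4-CD4+ replicate 4. Replicate numbers did not pair the libraries throughout. Same-numbered libraries correlated between -0.12 and 0.13 by the numbers of the titles, and between -0.09 and 0.16 by those of the descriptions. By these numberings, 2 and 6 of the 15 libraries correlated best with one of their own number. Differently numbered libraries ran from -0.14 to 0.24, and several of these pairs correlated more than any pair of the same number. By the titles, the highest was Tim-4-CD4- replicate 2 with Tim-4-CD4+ replicate 3 (0.24). Others were Tim-4-CD4- replicate 1 with Tim-4-CD4+ replicate 4 (0.22) and Tim-4-CD4- replicate 2 with Tim-4+CD4+ replicate 3 (0.18). No pairing was read from these values. The paper describes independent sorts from pooled mice, so that libraries of different subsets may come from the same pool. Which libraries share a sort is not given in the sources used here. No fit was made by sort, and the main fit treated the libraries as independent. A replicate block by either numbering left 0 members called between the CD4+ subsets, and 431 or 506 of all genes. The lowest count of a member in a library was 282, and counting error was not set against the spread between libraries.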
